A study of Mus musculus with 18 samples.

Results

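Retinoic acid, the active derivative of vitamin A (retinol), was followed here through 7 genes that make it, carry it, answer to it or break it down: Rdh10, Aldh1a2, Dhrs3, Crabp1, Crabp2, Rarb and Cyp26a1. They were chosen by name for their place in the pathway, with earlier results of these data known. Each symbol matched 1 of the 31053 mouse genes in the count matrices. Their unique molecular identifiers (UMIs, counted RNA molecules) were summed over the cells of each embryo and over each class of cells.

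Retinol is oxidised to retinaldehyde and then to retinoic acid, which diffuses to neighbouring cells, binds nuclear receptors that sit on DNA and switches their target genes. In the embryo at the start of organogenesis, retinoic acid is made mainly in the somites and the mesoderm beside them and is destroyed in the tail bud and in anterior tissue, so that cells between these regions read a graded signal. The hindbrain, spinal cord, gut, heart and somites are known to depend on it.

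The libraries were made from single mouse embryos of the 129S4/SvJae background, dissociated whole at embryonic day 8.5 and profiled by droplet-based 3′ single-cell RNA sequencing. The groups were 7 wild-type embryos (WT), 3 Dnmt1 null embryos (Dnmt1 KO), 4 libraries of Dnmt3a null embryos (Dnmt3a KO) and 4 libraries of Dnmt3b null embryos (Dnmt3b KO). DNMT1 copies DNA methylation after replication, and DNMT3A and DNMT3B place new methylation. Per the study's methods, both parents were heterozygous and genotypes were read by PCR from the ecto-placental cone, so the loss was carried through the germ line and not limited to a tissue. Those methods describe a separate cross for each mutated gene, with matching wild types. The sample titles do not say which cross a WT embryo came from, so all 7 served together as the control for every knockout.

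The 18 libraries kept 109962 cells, from 1366 in WT 5 to 12716 in Dnmt3a KO 2, and 36606912 to 233594354 UMIs. The median UMI count per cell ran from 4451.5 in Dnmt3a KO 2 to 59714 in Dnmt1 KO 1. Dnmt1 KO 3 was the shallowest of its group at 7668, and 34.5% of its cells lay in shallow clusters with no name, against 3.37% and 4.23% in Dnmt1 KO 1 and 2. Dnmt3b KO 1 and 2 shared 12249 of their deposited barcodes, 86.5% and 79.3%, of which 7858 were kept in both, and were summed as 1 sample, so the Dnmt3b KO had 3 samples. Dnmt1 stood at 14.9 to 15.7 UMIs per 1000000 UMIs of the library (CPM) in the Dnmt1 KO and at 83.2 to 116 CPM in the WT. Dnmt3a stood at 7.39 to 11.8 CPM in the Dnmt3a KO and at 23.1 to 34.9 CPM in the WT, but also at 15.02 and 7.56 CPM in Dnmt3b KO 11 and 12. Dnmt3b was at 54.3 to 68.3 CPM in the Dnmt3b KO and at 35.3 to 87.2 CPM in the WT, and 3′ counts outside a deleted part check nothing. Summed Y-linked RNA stood at 91.2 CPM in WT 2 and at 0.00444 to 0.147 CPM in the other 6 WT embryos, at 100.96 to 109.6 CPM in the Dnmt1 KO, at 92.9 to 112 CPM in the Dnmt3a KO, and at 91.3 to 105 CPM in Dnmt3b KO 1, 2 and 11 but 0.0122 CPM in Dnmt3b KO 12. High and low levels were thus not balanced between these groups.

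The promoters of Rarb, the retinoic acid receptor beta gene, and Cyp26a1, the gene of the enzyme that breaks retinoic acid down, are shown because both are textbook direct targets of the receptors. RefSeq windows of 250 bases before an annotated start (GRCm38.p6) were matched for 5 of the 7 genes, and none was matched for Rdh10 or Crabp2. Each window was searched on both strands for 2 half-sites in direct repeat separated by 5 bases (DR5), with AGGTCA as the half-site or one of its known variants, which are AGTTCA and also GGGTCA and the combined form GGTTCA. Capitals mark the 2 half-sites, the Rarb window is chr14:16575477-16575726 on the minus strand and the Cyp26a1 window is chr19:37697558-37697807 on the plus strand.
Rarb: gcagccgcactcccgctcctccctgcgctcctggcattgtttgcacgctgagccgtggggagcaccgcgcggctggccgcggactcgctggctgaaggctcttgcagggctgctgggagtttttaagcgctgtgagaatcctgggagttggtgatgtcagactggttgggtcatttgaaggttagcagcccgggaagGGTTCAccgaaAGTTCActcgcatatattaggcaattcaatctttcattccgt
Cyp26a1: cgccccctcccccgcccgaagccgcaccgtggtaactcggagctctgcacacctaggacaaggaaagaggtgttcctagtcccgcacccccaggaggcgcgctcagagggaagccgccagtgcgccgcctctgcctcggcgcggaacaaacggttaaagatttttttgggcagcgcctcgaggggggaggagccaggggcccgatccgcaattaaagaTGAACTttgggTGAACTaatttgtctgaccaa

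The Rarb repeat lay 53 to 37 bases before the start, at chr14:16575513-16575529. This annotated start is an internal one, since the whole gene spans 16430839 to 16819156. The Cyp26a1 repeat lay on the other strand, 32 to 16 bases before the start, at chr19:37697776-37697792. Such a repeat was held by 29 of 32851 RefSeq promoter windows (0.0883%), whereas a single half-site was held by 38.6% of them. The windows of Aldh1a2, Crabp1 and Dhrs3 held none of these repeats, which says only that these letters were not found in them. CpG sites, where DNA methylation is placed, numbered 40 in the Aldh1a2 window, a count reached by 1.31% of all windows, 20 in that of Cyp26a1, 16 in that of Rarb, 12 in that of Crabp1 and 19, 8 and 7 in the 3 windows of Dhrs3, against a median of 6 over all windows. Methylation itself was not analysed here.

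To see where each gene was read in undisturbed embryos, cells were placed in classes by clustering all libraries together without the 7 genes, and a class was called X-like from its marker genes. In the WT, 21 units held at least 25 cells in 3 or more embryos, 16 named classes and 5 clusters called by their leading genes, and the order of units within a gene is a description with no test. Rdh10 (mm10, chromosome 1, 16105774 to 16133734) encodes the retinol dehydrogenase of the first step. Its level was highest in a small cluster led by Calca and Nkx2-9, at 83.4 ± 14.9 CPM (SD, n = 4), with the lowest embryo above every embryo of the next unit. That unit, the cluster led by Lhx1 and Arg1, stood at 50.3 ± 8.92 CPM (n = 7), the somitic mesoderm-like cells at 43.5 ± 9.50 CPM (n = 6) and the extraembryonic (ExE) endoderm-like cells of the yolk sac at 38.98 ± 5.85 CPM (n = 7), and these 3 neighbours overlapped. The ExE endoderm-like cells held the largest share of WT Rdh10 UMIs, 33.7%, from 15.3% of all WT UMIs. The Calca and Nkx2-9 cluster held 2.54% from 0.572%, and the Lhx1 and Arg1 cluster 14.1% from 5.17%. With classes from WT reference cells, described further on, the lead was narrower. The Nkx2-9 and Calca cluster then held 2.79% from 0.872%, and a cluster led by Lhx1 and Osr1 12.7% from 4.33%.

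Aldh1a2 (chromosome 9, 71215789 to 71296243), the retinaldehyde dehydrogenase that completes the synthesis in the early embryo, was read most in mesoderm of the trunk. Its level was 416 ± 132 CPM in the somitic mesoderm-like cells, between 265 and 589 CPM over 6 embryos and above every embryo of the next unit. The cluster led by Lhx1 and Arg1 followed at 148 ± 49.6 CPM (n = 7) and the presomitic mesoderm-like cells at 121 ± 69.4 CPM (n = 7), which did not differ beyond their spread, and then the hindbrain and spinal cord-like cells at 33.5 ± 8.71 CPM. Together the somitic and presomitic classes and the Lhx1 and Arg1 cluster held 38.0%, 21.5% and 19.9% of WT Aldh1a2 UMIs. After each cell was thinned to 3000 UMIs, at least 1 Aldh1a2 UMI was found in 50.8% of somitic mesoderm-like cells and in 0.0929% of erythroid-like cells, which should lack it (80.2% and 2.03% without thinning, with embryos' median depths of 25849.5 to 62055.5 and 12226.5 to 65164 UMIs). Aldh1a2 was thus far above free RNA in its leading class.

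Dhrs3 (chromosome 4, 144892827 to 144928209) encodes the reductase that returns retinaldehyde to retinol. It was low everywhere: its 2 leading units, the ExE endoderm-like cells at 15.4 ± 3.01 CPM (n = 7) and the notochord-like cells at 15.01 ± 11.03 CPM (n = 4), did not differ beyond their spread, and neither did the somitic mesoderm-like cells at 12.7 ± 2.94 CPM (n = 6). Only 4.74% of ExE endoderm-like cells held a Dhrs3 UMI after thinning, against 0.327% of erythroid-like cells. The leading class of Dhrs3 stayed the same in 3 of 7 sets that left out 1 WT embryo and in 7 of 7 for the other 6 genes. With classes from WT reference cells, described further on, immune-like cells led for Dhrs3 at 16.4 ± 11.4 CPM (n = 3), within the spread of the ExE endoderm-like cells at 15.4 ± 3.04 CPM (n = 7).

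Crabp1 (chromosome 9, 54764748 to 54773110) and Crabp2 (chromosome 3, 87948666 to 87953376) encode the cellular retinoic acid binding proteins, which hold retinoic acid in the cytoplasm or pass it to enzymes and receptors. Both had their highest mean in the hindbrain and spinal cord-like cells. Crabp1 stood at 1222 ± 498 CPM (n = 7) there, followed by the cluster led by Cdx4 and Foxf1 at 454 ± 35.6 CPM, the neural crest-like cells at 452 ± 337 CPM, the presomitic mesoderm-like cells at 430 ± 38.2 CPM and the surface ectoderm-like cells at 400.1 ± 88.6 CPM, none of which differed from its neighbour beyond the spread. The highest neural crest-like value, 1051.5 CPM, lay above the lowest hindbrain and spinal cord-like one, 819.7 CPM. Crabp2 stood at 997 ± 256 CPM in the hindbrain and spinal cord-like cells, which held 40.6% of its WT UMIs from 7.73% of all UMIs, and at 426 ± 46.0 CPM in the NMP-like cells (neuromesodermal progenitors, which give rise to spinal cord and somites). After thinning, 69.3% of hindbrain and spinal cord-like cells held a Crabp1 UMI and 80.3% a Crabp2 UMI, against 2.11% and 1.26% of erythroid-like cells. The Cdx4 and Foxf1 cluster reached the same share for Crabp1, 70.7%, at a lower mean level.

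Rarb (chromosome 14, 16430839 to 16819156) encodes a receptor of retinoic acid whose own gene answers to it. Its 2 leading classes, the gut-like cells at 35.7 ± 6.05 CPM and the hindbrain and spinal cord-like cells at 33.4 ± 4.97 CPM (n = 7 each), did not differ beyond their spread. The next unit, the Calca and Nkx2-9 cluster, stood at 22.1 ± 7.72 CPM (n = 4). ExE endoderm-like cells, the class with the most UMIs of all, held 0.237 ± 0.156 CPM of Rarb, and one WT embryo had none there. Rarb UMIs were found in 11.1% of thinned gut-like cells and 0.0410% of erythroid-like cells.

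Cyp26a1 (chromosome 19, 37697798 to 37701536) encodes the cytochrome P450 that oxidises retinoic acid for disposal. It was highest in the NMP-like cells at 112 ± 48.4 CPM (n = 7), followed by the gut-like cells at 70.1 ± 42.4 CPM, the endothelium-like cells at 39.7 ± 10.9 CPM and the presomitic mesoderm-like cells at 38.6 ± 22.1 CPM, with each pair of neighbours overlapping. In the somitic mesoderm-like cells, where Aldh1a2 was highest, it stood at 5.44 ± 2.50 CPM (n = 6). Over all 30444 thinned WT cells, 1.22% to 3.70% of those with an Aldh1a2 UMI also held a Cyp26a1 UMI, against 3.001% to 6.51% of those without, and the share was lower in 7 of 7 libraries. The reverse held for Crabp1, found in 45.8% to 69.1% of cells with an Aldh1a2 UMI and in 23.3% to 35.4% of those without. These shares cover every class at once, and classes differ in all 3 genes.

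**Figure D1:**
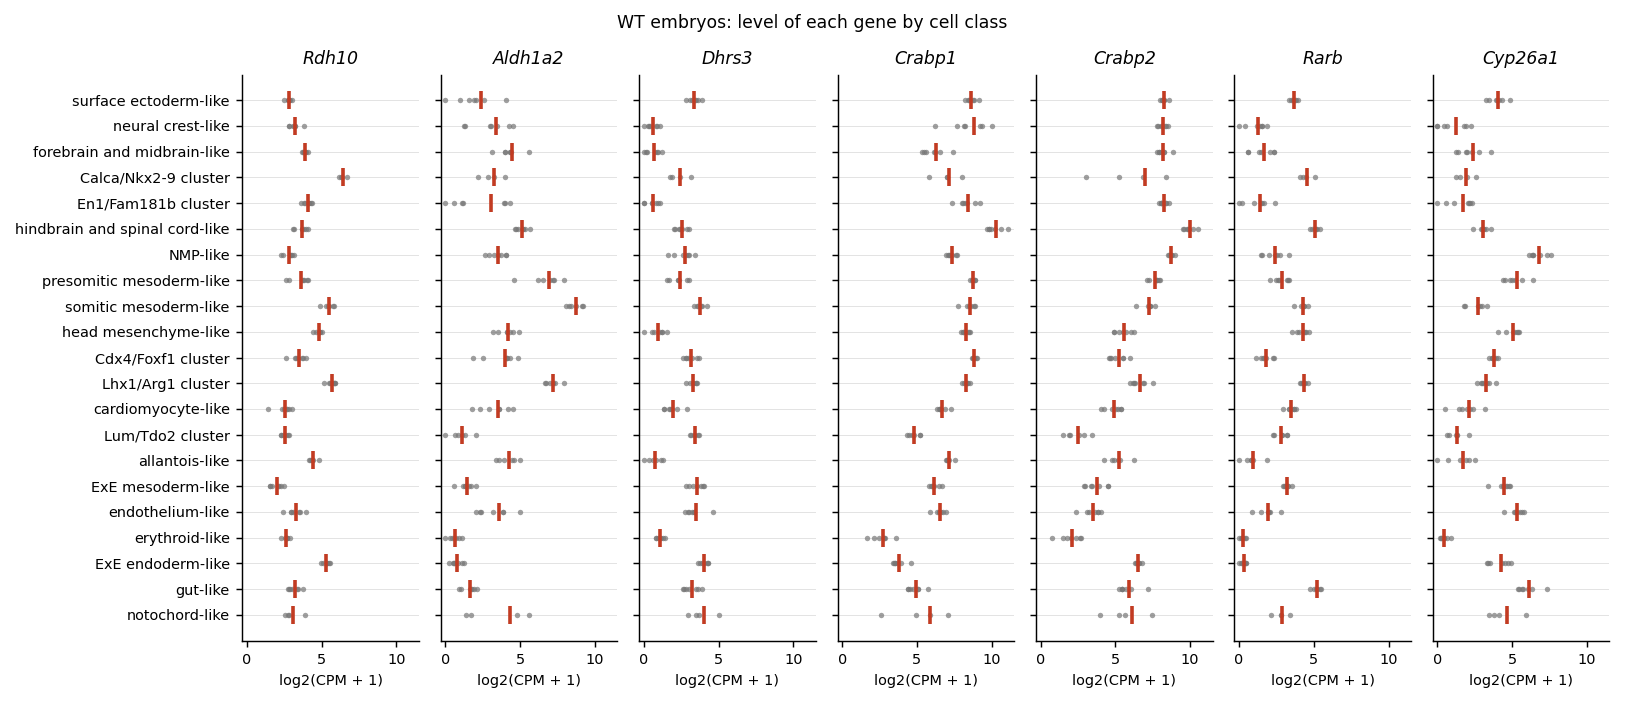
Level of each of the 7 genes in the 21 WT units, as log2(CPM + 1) on the horizontal axis. Each grey point is 1 WT embryo and each red bar the mean of 4 to 7 embryos. Aldh1a2 peaks in the somitic mesoderm-like row at 416 CPM, Crabp1 and Crabp2 in the hindbrain and spinal cord-like row at 1222 and 997 CPM, and Cyp26a1 in the NMP-like row at 112 CPM.

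The genes whose WT pattern was most like that of each member, by Pearson's r of mean log2(CPM + 1) over the 21 units among 8297 genes that reached 20 CPM in a unit, are given as a description; the units share their libraries. For Aldh1a2 these were Meox1 (r = 0.83), Wfdc21 (0.82) and Tcf15 (0.80), of which Meox1 and Tcf15 are regulators of somites and markers used to name the class. For Crabp1 they were Golga7 (0.89), Atad2 (0.87) and Mycn (0.86), for Crabp2 Pak1 and Ptprz1 (both 0.89) and Nr6a1 (0.87), and for Rarb Klhl24 (0.85), Plat (0.85) and Meis1 (0.82), a homeobox gene. Cyp26a1 was most like Etv4 (0.79), Fblim1 (0.71) and Rin2 (0.71), Dhrs3 most like Rin2 (0.77) and Rdh10 most like Depdc7 (0.64). Between members, the closest patterns were those of Aldh1a2 and Crabp1 (r = 0.67) and of Crabp1 and Crabp2 (r = 0.66), and r was 0.09 between Aldh1a2 and Cyp26a1.

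The first comparison with the knockouts asked whether the level of each gene over the whole embryo changed. Counts were summed per embryo and tested by edgeR's quasi-likelihood test over all 18763 genes with Benjamini-Hochberg adjustment, and calls needed an adjusted p below 0.01 together with a change of 2-fold or more. In the Dnmt1 KO both binding protein genes fell, and no other member was called: 2 of 7 were called lower and 0 higher, against 6.05% of all genes called lower and 8.09% higher. DESeq2 also called 2 of 7, and 5 of 7 lay under 0.05 in edgeR before adjustment, as did 8633 of all 18763 genes. In a sum over the whole embryo, fewer cells of a type and less RNA per cell cannot be told apart. The median log2 fold change was -0.76 over the 7 members and 0.01 over all genes tested.

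Crabp2 stood at 94.0, 47.0 and 88.2 CPM in Dnmt1 KO 1, 2 and 3 and at 157 (lowest), 190.1 (median) and 224 CPM (highest) in the 7 WT embryos. All 3 Dnmt1 KO embryos thus lay below every WT embryo, which was also so for 18.5% of the 12615 genes with a mean of 1 CPM or more. The log2 fold change was -1.27 ± 0.19 (SE; edgeR adjusted p = 7.57e-05), a 2.42-fold lower level. Crabp1 stood at 106, 57.7 and 174 CPM in the Dnmt1 KO and at 219, 260.4 and 296 CPM (lowest, median, highest) in the WT, again without overlap. Its log2 fold change was -1.12 ± 0.25 (edgeR adjusted p = 0.00189). No member had every Dnmt1 KO embryo above every WT embryo, against 7.12% of genes.

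The synthesis genes did not move together. Aldh1a2 stood at 12.7, 12.2 and 32.0 CPM in the Dnmt1 KO and at 24.97, 35.8 and 62.5 CPM (lowest, median, highest) in the WT, so Dnmt1 KO 1 and 2 lay below every WT embryo and Dnmt1 KO 3 among them; the log2 fold change of -0.96 ± 0.35 was not called (edgeR adjusted p = 0.0392). Rdh10 stood at 31.8, 26.2 and 16.0 CPM against 13.4, 18.5 and 21.6 CPM, so Dnmt1 KO 1 and 2 lay above every WT embryo and Dnmt1 KO 3 among them, and its log2 fold change of 0.55 ± 0.16 was not called (edgeR adjusted p = 0.0115). For the receptor gene Rarb the values were 5.497, 2.69 and 8.31 CPM against 7.61, 9.24 and 13.6 CPM, with a log2 fold change of -0.76 ± 0.25 (edgeR adjusted p = 0.0244), not called. Cyp26a1 lay on both sides of the WT, at 13.1, 9.57 and 25.5 CPM around a WT range of 15.8 to 23.8 CPM (log2 fold change -0.20, 95% interval -0.67 to 0.26). Dhrs3 had a log2 fold change of 0.02 with an interval of -0.34 to 0.38.

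Dnmt1 KO 3 was higher than the other two embryos in Aldh1a2, Cyp26a1, Crabp1 and Rarb and lower in Rdh10. Without it the calls rose from 2 to 4 of 7, with log2 fold changes of -1.59 for Aldh1a2, -1.60 for Crabp1 and -1.21 for Rarb. Crabp1 lost its call without Dnmt1 KO 1, with a log2 difference of -1.05 (edgeR adjusted p = 0.0143), and without Dnmt1 KO 2, with -0.81, under the 2-fold limit, which left 1 member called in each of these fits. With Y-linked RNA as a covariate 1 member was called. Crabp2 stayed called in each of the 17 fits that left out 1 sample. With same-numbered libraries of the groups treated as blocks, no member was called, and 1 was in the same libraries without the blocks. The share of all genes called in these refits was not set beside the counts of members.

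**Figure D2:**
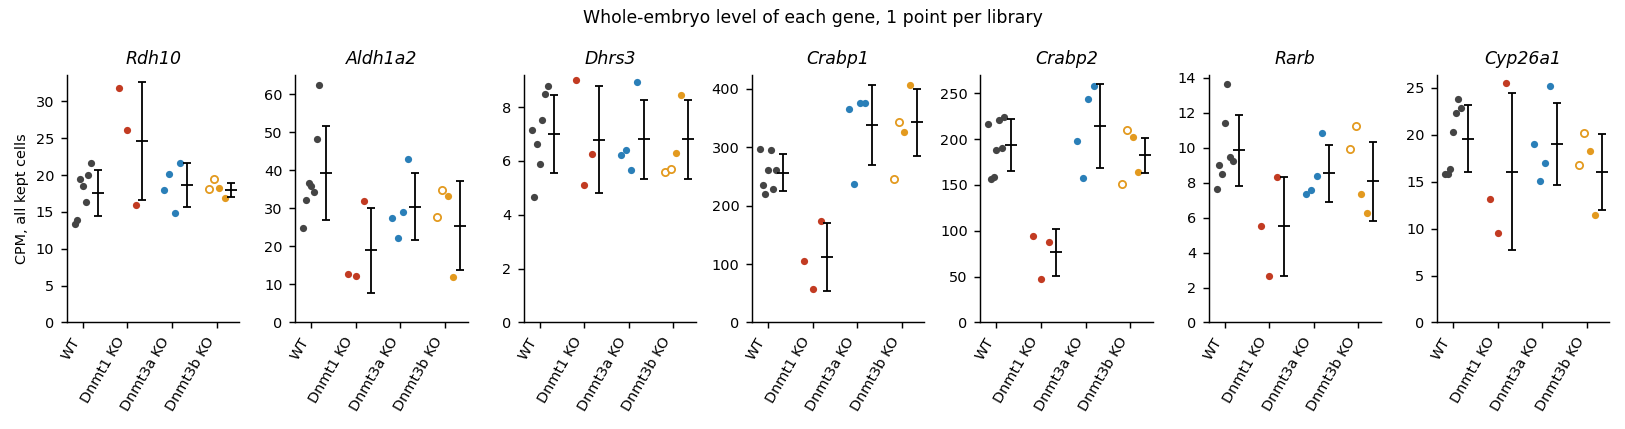
Whole-embryo level of each gene in CPM over all kept cells, 1 point per library, with the mean ± SD of each group beside its points; open points are the 2 libraries counted as 1 sample. For Crabp1 and Crabp2 the 3 Dnmt1 KO points (57.7 to 174 and 47.0 to 94.0 CPM) lie below every WT point, and for the other 5 genes the groups overlap.

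In the Dnmt3a KO and the Dnmt3b KO no member was called over the whole embryo (0 of 7 in each; 0 with an unadjusted p under 0.05 and 0 by DESeq2), against 0.219% and 1.82% of all genes. The intervals leave room for changes, for Aldh1a2 in the Dnmt3b KO past the 2-fold limit: Crabp1 had a log2 difference of 0.38 in the Dnmt3a KO (95% interval -0.02 to 0.79) and 0.39 in the Dnmt3b KO (-0.06 to 0.83), and Aldh1a2 one of -0.63 (-1.30 to 0.04) in the Dnmt3b KO. Crabp1 stood at 365, 237, 376 and 375 CPM in Dnmt3a KO 1, 2, 13 and 14, so 3 of 4 lay above every WT embryo. Aldh1a2 stood at 31.3, 33.2 and 11.9 CPM in Dnmt3b KO 1 and 2 summed, 11 and 12, and without Dnmt3b KO 12 its log2 difference was -0.28. Rdh10 differed least in the Dnmt3b KO, with a log2 difference of 0.01 (-0.31 to 0.32).

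Which cells held each gene's UMIs was then set side by side, since the Dnmt1 KO embryos were made up of other classes than the WT. Over embryos, hindbrain and spinal cord-like cells went from a mean of 7.18% of cells in the WT to 0 of 7068 cells in the Dnmt1 KO, somitic mesoderm-like cells from 2.60% to 0.0446% and NMP-like cells from 4.66% to 0.217%; these shares are a description. The epiblast-like class was named from Pou5f1, Utf1, Fgf5, Slc7a3 and Pim2. The study reports these markers as upregulated across most cell types of Dnmt1 null embryos, so there they are not limited to epiblast. It also reports brain and spinal cord cells as underrepresented there, with all major cell types formed. Epiblast-like cells were 12.6% of cells against 0.0486%, and ExE ectoderm-like cells 13.7% (4.43% to 31.1%) against 0.262%. These shares come from classes built on all libraries together and differ with classes from WT reference cells, described further on, where NMP-like cells held 3.06% of all Dnmt1 KO UMIs against 4.74% in the WT and hindbrain and spinal cord-like cells 3.27% against 7.24%. With the classes from all libraries, epiblast-like cells held 52.4% of the Crabp2 UMIs of the Dnmt1 KO, from 13.9% of all its UMIs, and ExE endoderm-like cells 25.5%, from 28.2% of all its UMIs. Its Aldh1a2 UMIs lay mainly in a cluster led by Mesp1 and Gm14226 (44.4%, from 5.62% of all UMIs), which held 324 Dnmt1 KO cells, 4 Dnmt3b KO cells and 0 WT cells, and in cardiomyocyte-like cells, which held 31.7% from 7.38% of all UMIs, against 0.857% from 2.92% in the WT. Rdh10 UMIs lay in ExE endoderm-like cells at 72.7%, from 28.2% of all UMIs, against 33.7% from 15.3% in the WT. With classes from WT reference cells, the largest shares of the Crabp2 UMIs of the Dnmt1 KO were those of ExE endoderm-like (25.5%, from 28.1% of all UMIs), hindbrain and spinal cord-like (15.7%), NMP-like (14.9%) and surface ectoderm-like cells (14.3%, from 4.90%). Its Aldh1a2 UMIs then lay at 35.2% in a cluster led by Lhx1 and Osr1, at 21.03% in presomitic mesoderm-like cells and at 13.8% in pharyngeal mesoderm-like cells, with 0 UMIs in cardiomyocyte-like cells.

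**Figure D3:**
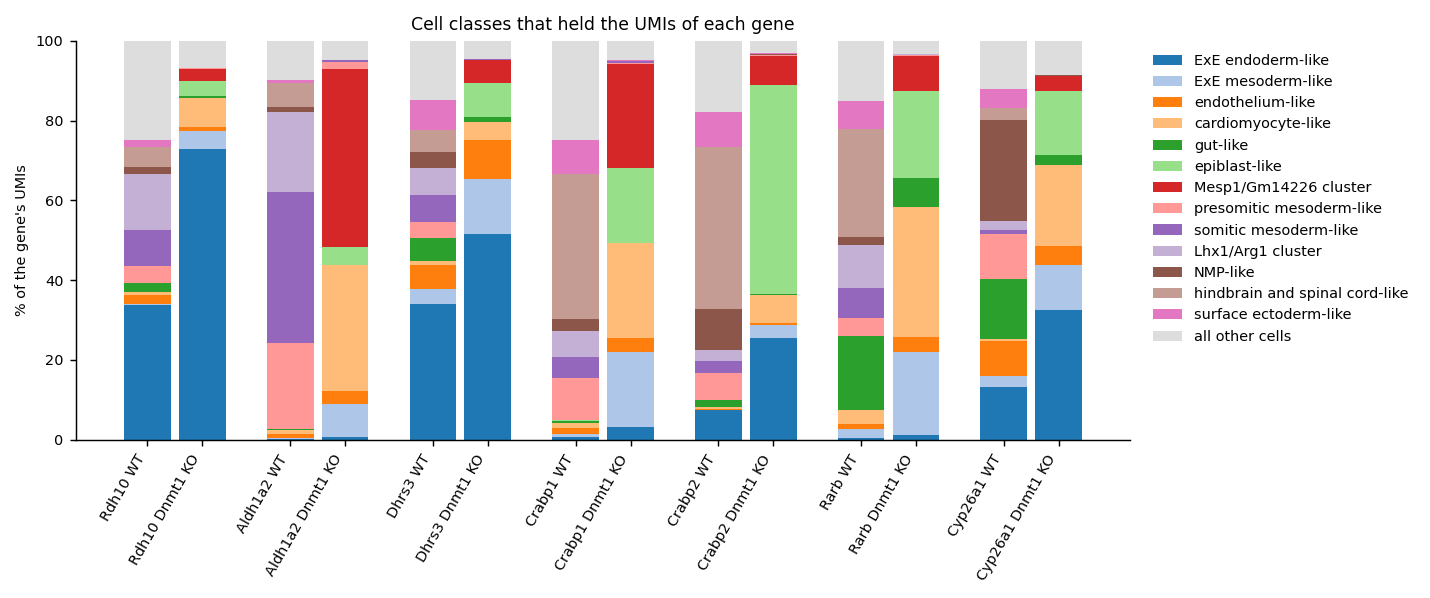
Share of each gene's UMIs (vertical axis, %) held by each class, for WT and Dnmt1 KO embryos pooled within a group, with classes built on all libraries together; each colour is a class and grey is every other cell. The hindbrain and spinal cord-like share of Crabp2 UMIs is 40.6% in the WT and 0 in the Dnmt1 KO, where the epiblast-like share is 52.4%; with classes from WT reference cells the former is 15.7% in the Dnmt1 KO.

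Epiblast-like cells numbered 828 in the Dnmt1 KO and 12 in the WT, so neither that class nor the Mesp1 and Gm14226 cluster could be tested, and their levels are given as a description. The Mesp1 and Gm14226 cluster held Aldh1a2 at 109, 127 and 196 CPM (lowest, middle and highest embryo), Crabp1 at 456, 486 and 528 CPM and Crabp2 at 62.2, 103 and 106 CPM. In the epiblast-like cells Crabp2 stood at 275 ± 51.1 CPM and Crabp1 at 138 ± 43.8 CPM (n = 3), while Aldh1a2 stood at 5.51 ± 3.05 CPM.

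Within classes, the comparison could be made in 6 units that had 25 cells in at least 3 embryos of both groups, 1 of them the pooled shallow clusters, which gave 42 pairs of a member and a unit. By the same edgeR test, 6 of 7 members were called higher in the cardiomyocyte-like cells and 3 of 7 in the ExE mesoderm-like cells, and 2 of 7 were called lower in the gut-like cells. These are 9 pairs higher and 2 lower, against 4.18% and 4.51% of all 73869 pairs of a gene and a unit. The 6 members called in the cardiomyocyte-like cells were all but Dhrs3. With classes from WT reference cells, described further on, only 0.0327% of Dnmt1 KO UMIs lay in cardiomyocyte-like cells. A cluster of that set with Sfrp5, Wnt2 and Mef2c among its leading genes was named pharyngeal mesoderm-like, and no member was called in it. With classes from all libraries, Cyp26a1 in the cardiomyocyte-like cells stood at 35.6, 37.0 and 45.0 CPM in the Dnmt1 KO. In the WT it stood at 0.441, 3.02 and 8.16 CPM (lowest, median, highest), a log2 fold change of 3.86 ± 0.33 (edgeR adjusted p = 2.18e-08). Aldh1a2 stood at 80.1, 121 and 56.9 CPM against 2.45, 10.8 and 21.96 CPM (log2 fold change 2.97 ± 0.33, edgeR adjusted p = 6.88e-07). Rdh10 stood at 25.9, 33.2 and 21.7 CPM against 1.63, 5.29 and 7.21 CPM, a 5.35-fold higher level. No WT embryo reached the lowest Dnmt1 KO embryo for any of these 3 genes. The share of all genes without overlap was not counted within classes, here or in the other classes below. In the cardiomyocyte-like cells 739 of 12053 genes were called higher and 1192 lower. In the ExE mesoderm-like cells 672 of 12090 were called higher, and in the gut-like cells 425 of 13038 lower. In the cardiomyocyte-like cells Crabp1 also rose by 1.80, Crabp2 by 1.22 and Rarb by 1.19 on the log2 scale. Without Dnmt1 KO 1, Crabp2 was not called in these cells (log2 difference 1.11, edgeR adjusted p = 0.0154).

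The cells behind these values were not the same clusters in both groups. Of the 402 Dnmt1 KO cardiomyocyte-like cells, 401 lay in a cluster led by Sfrp5 and Mef2c, which held 322 WT cells, and 1 lay in the cluster led by the contractile genes Actc1 and Myl7, which held 696 WT cells. Fitted within the Sfrp5 and Mef2c cluster alone, an alternative chosen after this was seen, 5 of the 6 calls remained, with log2 fold changes of 3.36 for Cyp26a1, 1.77 for Aldh1a2, 1.72 for Rdh10, 1.81 for Crabp1 and 1.21 for Rarb. The share of all genes called in this cluster was not set beside these calls. Crabp2 had a log2 difference of 0.91 there and was not called (edgeR adjusted p = 0.0817). Aldh1a2 was at 56.9 to 121 CPM in the Dnmt1 KO and at 6.98 to 46.1 CPM in the 6 WT embryos with enough cells of that cluster.

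In the ExE mesoderm-like cells Aldh1a2 stood at 7.48, 10.7 and 14.9 CPM in the Dnmt1 KO against 0.494, 1.54 and 3.07 CPM in the WT (log2 fold change 2.81 ± 0.37, edgeR adjusted p = 5.68e-06), low values next to those of the somites. Rdh10 rose by 1.67 and Crabp1 by 1.12 on the log2 scale, and without Dnmt1 KO 3 Crabp1 had a log2 difference of 0.95 and was not called. Of these Dnmt1 KO cells, 813 of 831 lay in a cluster led by Tdo2 and Stard8 that held 17 WT cells, so no fit within one cluster could be made. With classes from WT reference cells, where 399 Dnmt1 KO cells were ExE mesoderm-like, none of the 3 was called: the log2 difference was 0.97 for Aldh1a2, 0.36 for Rdh10 and 0.82 for Crabp1 (edgeR adjusted p = 0.151, 0.255 and 0.000191). In the ExE endoderm-like cells Rdh10 stood at 64.7, 65.8 and 71.2 CPM against 29.8, 39.2 and 46.1 CPM in the WT. The groups did not overlap, but the log2 fold change of 0.79 ± 0.10 (edgeR adjusted p = 1.86e-05) was under the 2-fold limit. Of these Dnmt1 KO cells, 1044 of 1461 lay in a cluster that held 15 WT cells, and in the Apoa1 and Ttr cluster that both groups shared the log2 difference was 0.65 (edgeR adjusted p = 0.0512).

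In the gut-like cells, of which the Dnmt1 KO embryos had 29, 42 and 41, Crabp2 stood at 18.2, 7.64 and 3.22 CPM against 37.2, 43.1 and 142 CPM in the WT. It fell by 2.52 ± 0.53 on the log2 scale (edgeR adjusted p = 0.00152), and Crabp1, at 13.3, 2.35 and 7.51 CPM against 20.1, 25.7 and 53.2 CPM, by 1.81 ± 0.43 (edgeR adjusted p = 0.00443). Without Dnmt1 KO 2 or without Dnmt1 KO 3 neither was called in the gut-like cells, with log2 differences of -2.37 and -2.11 for Crabp2 and -1.41 and -1.78 for Crabp1. Cyp26a1 stood at 6.41, 19.99 and 37.5 CPM against 41.7, 51.0 and 161 CPM, without overlap, and was not called over the class (log2 difference -1.57, edgeR adjusted p = 0.0277). Within the gut-like cluster led by Nepn and Apela, Cyp26a1 was called, with a log2 fold change of -2.31 (edgeR adjusted p = 0.00629). Rarb, highest of all in the WT gut-like cells, had a log2 difference of -0.66 (edgeR adjusted p = 0.0227), not called. In the endothelium-like cluster led by Kdr and Cdh5, Cyp26a1 had a log2 fold change of -1.43 and Dhrs3 one of 1.60, both called there and neither over the whole class. For this cluster and that led by Nepn and Apela, the share of all genes called was not set beside these calls.

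A second set of classes, planned as an alternative, was built from WT cells alone, and each knockout cell was given the class of its nearest WT cells. It places a Dnmt1 KO cell in a WT class however far it lies from it: the median distance to the nearest WT reference cells was 9.04 to 10.6 in the Dnmt1 KO and 5.91 to 8.85 in the other WT cells. It was 7.03 to 9.95 in the Dnmt3a KO and 7.40 to 9.49 in the Dnmt3b KO libraries, ranges that overlap that of the Dnmt1 KO. With these classes 83 pairs in 12 units could be tested, of which 4 were called higher and 9 lower, against 4.58% and 2.81% of all 149699 pairs. Only 1 pair, Crabp2 in the gut-like cells, was called with both sets of classes, of 11 called with the first and 13 with the second. Of these, 5 of the 11 could be tested with the second set, and 1 of the 13 with the first. The cardiomyocyte-like class could not be tested with the second set. The pharyngeal mesoderm-like class of that set, with Sfrp5, Wnt2 and Mef2c among its leading genes, held 330 Dnmt1 KO cells. No member was called in it, with log2 differences of -0.51 for Aldh1a2, -0.70 for Rdh10 and 0.83 for Cyp26a1. Its WT cells included cells from outside the Sfrp5 and Mef2c cluster of the first set. They held 2471 Aldh1a2 UMIs in 3.14% of WT UMIs. The whole WT cardiomyocyte-like class of the first set held 405 in 2.92%.

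With this assignment the hindbrain and spinal cord-like class held 188 Dnmt1 KO cells. Crabp1 stood there at 286, 178 and 121 CPM against 885, 981 and 2232 CPM (lowest, median, highest) in the WT (log2 fold change -2.60 ± 0.33, edgeR adjusted p = 8.50e-06). Aldh1a2 had a log2 fold change of -2.75, Rarb one of -1.72 and Crabp2 one of -1.43, while Cyp26a1 rose from 6.35 ± 1.21 to 12.4 ± 4.17 CPM (log2 fold change 1.11). In the NMP-like class, with 196 Dnmt1 KO cells, Cyp26a1 stood at 7.64, 6.24 and 10.9 CPM against 63.4, 74.1 and 162 CPM, the steepest fall of any member in these fits (log2 fold change -3.49 ± 0.52, edgeR adjusted p = 4.51e-05). In the surface ectoderm-like class Cyp26a1 fell by 1.58 and Crabp1 by 1.56 on the log2 scale. In the cluster led by Lhx1 and Osr1, Rdh10 fell by 1.15 and Cyp26a1 rose by 1.48, and in that led by Cdx4 and Foxf1, Aldh1a2 rose by 1.18 and Rarb by 1.13.

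**Figure D4:**
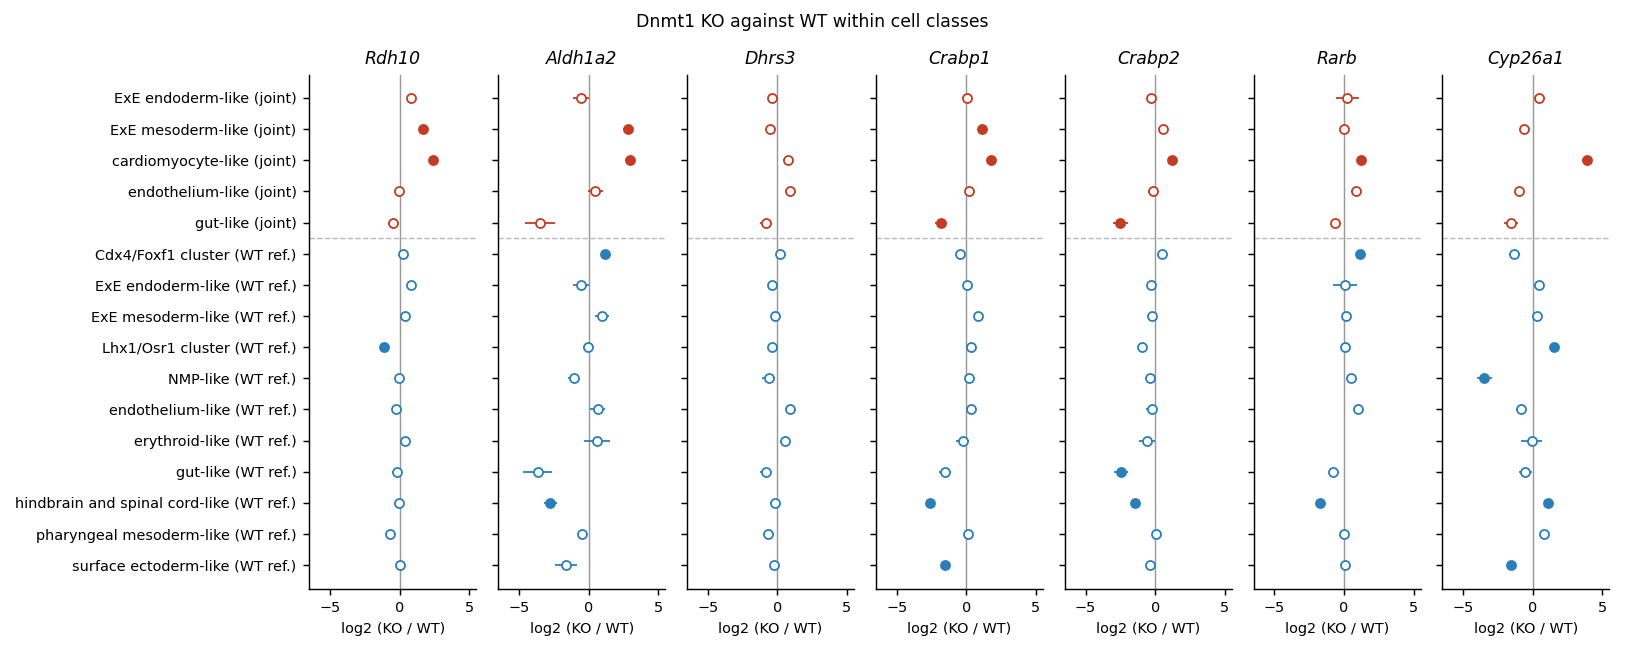
Log2 fold change of each gene in the Dnmt1 KO against the WT within classes, with bars of ± 1 SE; rows above the dashed line use classes from all libraries together and rows below it classes from WT reference cells. Filled points were called. The cardiomyocyte-like row holds 6 filled points to the right of 0 and the hindbrain and spinal cord-like row 4 to the left and 1 to the right. The pharyngeal mesoderm-like row, from WT reference cells, holds no filled point.

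Whether the change of a member differed between 2 classes was tested by permuting the embryos' labels exactly, over 1065 sets of a member, 2 classes and a knockout. None passed an adjusted p of 0.05 (0 of 1065; 120 with an unadjusted p under 0.05; smallest adjusted p = 0.385), nor did any of 1296 with classes from WT reference cells. The smallest p found was 0.00476 with either set of classes. With 3 against 7 embryos the exact permutation p cannot go below 0.00833, so over this many tests an adjusted p under 0.05 was hardly within reach, and the count of 0 does not say whether the responses differ between classes.

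The make-up of the embryo was set against the level of each gene over the units that had a WT mean. Each class was set at its WT mean and weighted by its share of UMIs in that embryo, which gave an expected level. In the Dnmt1 KO this expected level lay below that of the WT for Aldh1a2, Crabp1, Crabp2 and Rarb with both sets of classes, by 2.83, 2.04, 1.62 and 0.86 on the log2 scale with classes from all libraries and by 0.48, 0.33, 0.37 and 0.30 with classes from WT cells. Only 48.3% to 69.2% of Dnmt1 KO UMIs lay in units that had a WT mean in the first set and 63.2% to 91.9% in the second, against at least 87.8% in the other knockouts. The observed level was taken over the same units, which in the first set leave out the epiblast-like cells and the Mesp1 and Gm14226 cluster. For Crabp2 in the Dnmt1 KO it was 50.5 CPM with the first set, against 76.4 CPM over the whole embryo. With the first set, all 3 Dnmt1 KO embryos lay above all WT embryos in observed over expected level for Aldh1a2 (log2 difference 1.69), Rdh10 (0.88) and Crabp1 (0.80), each with an exact two-sided permutation p of 0.00833, the smallest this design allows, and an adjusted p of 0.0583. With the second set Aldh1a2 and Crabp1 lay on the other side, at log2 differences of -0.24 and -0.60, and Crabp2 at -0.74 (adjusted p = 0.0875 for Crabp1 and Crabp2, exact permutation). No member passed an adjusted p of 0.05 in either set.

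**Figure D5:**
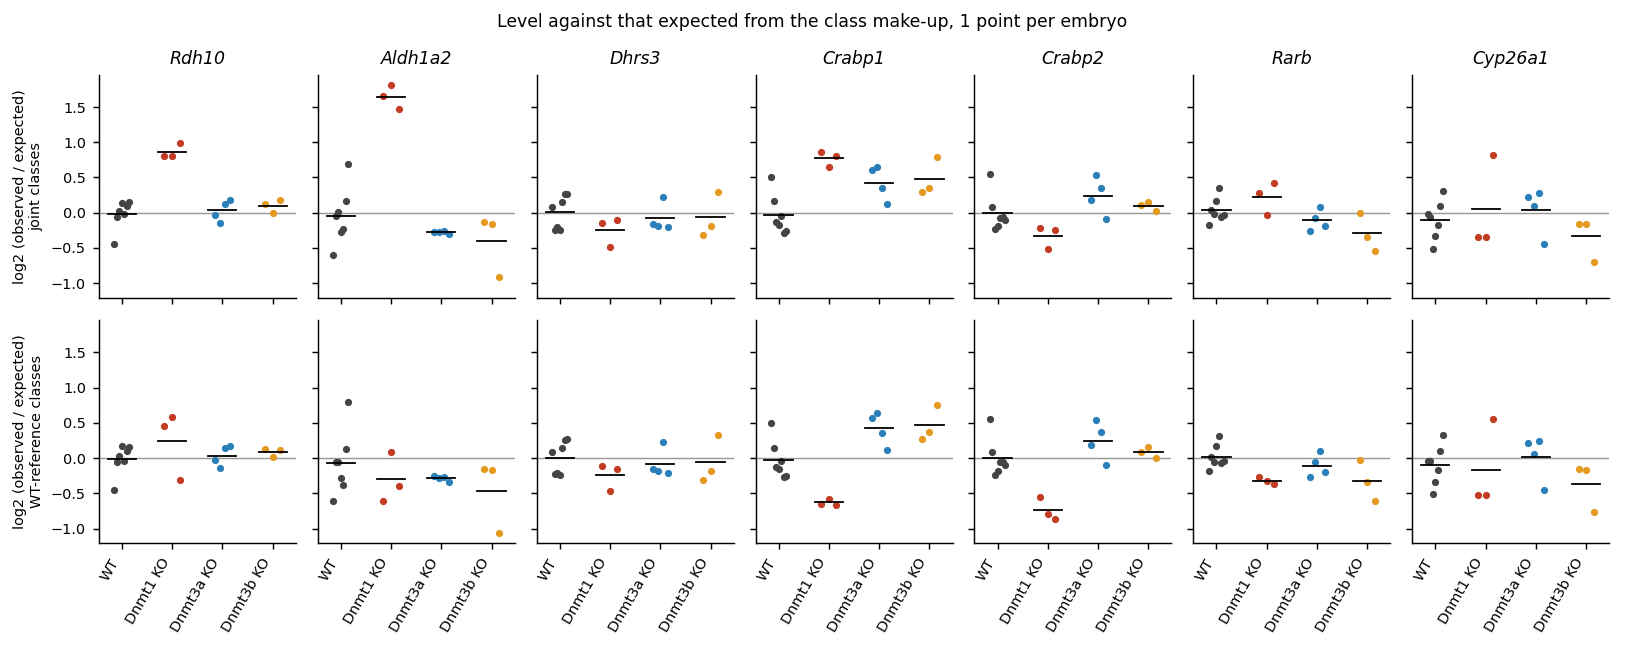
Observed level over the level expected from the class make-up, as log2 on the vertical axis, 1 point per embryo with the group mean as a bar. Both levels cover only the units that had a WT mean. The upper row uses classes from all libraries and the lower row classes from WT cells. Crabp1 in the 3 Dnmt1 KO embryos lies above 0 in the upper row (mean 0.77) and below 0 in the lower row (mean -0.63).

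Within classes, the Dnmt3a KO had no called pair (0 of 144 in 22 units; 24 with an unadjusted p under 0.05; 0 by DESeq2), against 0.0967% of all pairs. In the leading classes the values overlapped the WT: Aldh1a2 was at 331 to 389 CPM in 4 Dnmt3a KO embryos in the somitic mesoderm-like cells, Crabp1 at 1405 to 2304 CPM in the hindbrain and spinal cord-like cells (log2 difference 0.60, 95% interval 0.11 to 1.08, edgeR adjusted p = 0.389) and Cyp26a1 at 78.0 to 243 CPM in the NMP-like cells (log2 difference 0.73, edgeR adjusted p = 0.458). In the Dnmt3b KO 2 of 132 pairs in 20 units were called, both higher, against 0.621% of all pairs. Crabp1 in the ExE mesoderm-like cells stood at 138, 166 and 139 CPM in Dnmt3b KO 1 and 2 summed, 11 and 12, all above the WT range of 54.1 to 100.7 CPM (log2 fold change 1.02, edgeR adjusted p = 0.00352), and without Dnmt3b KO 11 the log2 difference was 0.88. Crabp2 in the cardiomyocyte-like cells stood at 42.7, 70.4 and 141 CPM against a WT range of 15.7 to 41.2 CPM (log2 fold change 1.44, edgeR adjusted p = 0.00972), and without Dnmt3b KO 12, its highest sample, the log2 difference was 0.89. In the Dnmt3a KO the same pair had a log2 difference of 1.04 and was not called (edgeR adjusted p = 0.191). In the Dnmt3b KO Crabp2 lost its call in 14 of the 17 fits that left out 1 sample and Crabp1 in 6 of them. Besides the fit without Dnmt3b KO 12, the Crabp2 log2 difference was 1.32 to 1.53 in the 13 other such fits (edgeR adjusted p = 0.0102 to 0.0268), and besides that without Dnmt3b KO 11, the Crabp1 one was 0.958 to 1.011. The same 2 libraries, Dnmt3b KO 11 and 12, were those low in Dnmt3a.

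The leading classes of the other comparisons with the Dnmt3b KO gave no call. Aldh1a2 stood at 353 ± 62.9 CPM in its somitic mesoderm-like cells (n = 3; log2 difference from the WT -0.23, 95% interval -0.63 to 0.17), and Crabp2 at 949 ± 181 CPM in its hindbrain and spinal cord-like cells (-0.07, -0.46 to 0.33). Cyp26a1 in its NMP-like cells was spread over 23.5, 98.3 and 112 CPM (lowest, middle and highest sample), so that its log2 difference of -0.48 had a wide interval, -1.29 to 0.32. In the Dnmt3a KO, Crabp2 stood at 1171 ± 191 CPM in the hindbrain and spinal cord-like cells (n = 4; 0.22, -0.14 to 0.57) and Aldh1a2 had a log2 difference of -0.24 (-0.60 to 0.13) in the somitic mesoderm-like cells. These classes held 740 to 1897 cells in the Dnmt3b KO.

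For the setting, 48 other genes of the pathway were listed by role, of which 47 were in the matrices and 46 were tested over the whole embryo. In the Dnmt1 KO 4 were called higher and 7 lower, against 8.09% and 6.05% of all genes, with a median log2 fold change of -0.04. The share called higher is near that of all genes. Those called lower came from several roles: Stra6, the cell's uptake receptor for retinol carried in blood (log2 fold change -1.20), Fabp5, a lipid binding protein that can carry retinoic acid (-1.60), the degrading enzymes Cyp26b1 (-1.80) and Cyp26c1 (-3.02), and the response genes Nr2f1 (-3.12), Nr2f2 (-1.43) and Hoxb4 (-1.04). Fabp5 stood at 129 to 219 CPM in the 3 Dnmt1 KO embryos and at 428 to 572 CPM in the WT, and Nr2f1, a nuclear receptor gene, at 0.835 to 2.68 against 11.9 to 27.8 CPM. The 2 other Cyp26 genes were thus called lower while Cyp26a1 was not, but both were scarce, with 14 Cyp26c1 and 65 Cyp26b1 UMIs in the Dnmt1 KO. Without Dnmt1 KO 2, Stra6, Hoxb4 and Cyp26b1 had log2 differences of -0.89, -0.85 and -1.59 and were not called, and without Dnmt1 KO 1 neither Stra6 (-1.17) nor Cyp26b1 (-1.73) was.

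Of those called higher, Stra8, a gene that retinoic acid induces in germ cells as they enter meiosis, stood at 2.74 to 5.78 CPM in the Dnmt1 KO and at 0.0311 to 0.219 CPM in the WT (log2 fold change 5.48 ± 0.62, edgeR adjusted p = 3.74e-06), and it was called in all 17 fits that left out 1 sample. The study reports germline genes as upregulated in Dnmt1 null embryos, and whether retinoic acid had a part in the rise of Stra8 was not tested. Aldh8a1, Adh4 and Adh7, which encode enzymes that act on retinaldehyde or retinol, had log2 fold changes of 1.99, 1.46 and 1.42 and stayed under 1 CPM in every embryo of both groups, and were called in 16, 12 and 15 of the 17 fits. Without Dnmt1 KO 1 none of the 3 was called, with log2 differences of 1.65, 0.92 and 1.04, nor without Dnmt1 KO 2 Adh4 (1.57) and Adh7 (1.29). Adh4 was also not called without WT 2, WT 3 or WT 6, with log2 differences of 1.41 to 1.44. In the Dnmt3b KO 1 of 46 was called, a share near the 1.82% of all genes. It was Stra8, at 0.294 to 4.62 CPM (log2 fold change 4.17 ± 0.61, edgeR adjusted p = 0.000330). Its log2 fold change was 2.80 without Dnmt3b KO 12, where it was highest. In the Dnmt3a KO 0 of 46 were called, with 12 at an unadjusted p under 0.05 by edgeR, against 1790 of all 18763 genes.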

How the data were processed

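Single embryos were profiled with the 10x 3′ v3 chemistry, and the deposited matrices hold counts of UMIs per gene and barcode that the authors made with Cell Ranger, version 3.1.0 in 17 libraries and 5.0.0 in 1 per the file headers, on mm10. For 4 libraries the reference also held human genes, which were left out. Barcodes with at least 1500 mouse UMIs, at most 30% mitochondrial and at most 35% ribosomal UMIs were kept, and 7924 predicted doublets were removed. Cells of all libraries were clustered together (leidenalg 0.10.2, resolution 2, 2500 variable genes, 50 components) without the members, and clusters were named from listed markers; a second set of classes came from 16366 WT reference cells. Counts were summed per embryo and class (25 cells, 3 embryos) and tested with edgeR 4.0.16 (quasi-likelihood, TMM, filterByExpr, all groups in one fit), with DESeq2 1.42.0 as an alternative. On simulated counts for the Dnmt1 KO comparison over 16583 genes, 197 of 200 changed genes were recovered with 0 false calls. The real comparison called many more genes, 1517 higher and 1135 lower of 18763, so this recovery need not hold for it. Single values were tested by exact permutation over embryos.

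The members and the pathway list were chosen with earlier results of these data known. Named genes were the 7 members, pathway genes called over the whole embryo and the 3 genes most like each member; other genes named lead or mark a cluster. Each embryo is 1 replicate, and litters were not given in the sources used here. Shares of cells with a UMI were taken after thinning to 3000 UMIs per cell, which left out 11.6% of WT and 14.1% of Dnmt1 KO cells as too shallow.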

Additional observations from a re-analysis of the deposited data

Results flagged for a closer look

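Of 35 groups of 4 to 10 embryos tested, 3 held 1 embryo far from the others, and chance flags about 1 group in 20. Aldh1a2 in the cluster led by Lhx1 and Arg1 stood at 249.4 CPM in WT 7, and the next WT embryo at 162 CPM. Cyp26a1 in the gut-like cells stood at 161 CPM in the same embryo, and the next at 80.3 CPM. Crabp1 over the whole embryo stood at 237 CPM in Dnmt3a KO 2 and at 365 CPM or more in the other 3 Dnmt3a KO embryos; without that library, which had the fewest UMIs per cell, the log2 difference from the WT was 0.51 in place of 0.38.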

How the results depend on the processing

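Of the values that answer a comparison, 194 held and 42 moved under the alternatives; of single members, 835 held, 54 lost a call, 2 gained one, 27 moved and 3 reversed. Over the whole embryo, the 2 members called in the Dnmt1 KO became 1 with Y-linked RNA as a covariate, 0 with the replicate block, 1 in the same libraries with no replicate block, 5 at an adjusted p under 0.05 with no fold limit, and 1 to 4 when each sample was left out in turn. At an adjusted p under 0.05 with no fold limit, 3538 of all 18763 genes were higher in the Dnmt1 KO and 3355 lower. For the other settings given here, the share of all genes called was not set beside the counts. Of pairs within classes, the Dnmt1 KO had 17 in place of 11 at an adjusted p under 0.05, and 9 to 13 with samples left out. The Dnmt3a KO had 4 in place of 0 with no filter on low counts, 1 with Dnmt3b KO 1 and 2 kept apart, 1 with thinned cells, 1 at an adjusted p under 0.05, and 0 to 1 with samples left out. The Dnmt3b KO had 4 in place of 2 with no filter, 1 with doublets kept, 0 with the reference as a covariate, 0 with Dnmt3b KO 1 and 2 kept apart, 1 with thinned cells, 0 with the replicate block and 0 in its libraries without the block, 1 with classes from WT cells, 0 with at least 50 cells, 6 at an adjusted p under 0.05, and 0 to 3 with samples left out. The cause of these changes was not tested. Observed over expected level in the Dnmt1 KO reversed with classes from WT cells, to -0.24 for Aldh1a2, -0.60 for Crabp1 and -0.34 for Rarb, and Rdh10 in the cluster led by Calca and Nkx2-9 moved to 57.7 CPM. Same-numbered libraries of different groups did not deviate together more than others did. The correlations over 12615 genes were -0.36 to 0.43 in 13 same-numbered pairs, 5 of them over 0.1, and -0.40 to 0.47 in 32 other pairs. These values show no pairing by number, but they cannot exclude litters or runs that such libraries shared. Among members not called, Dhrs3 in the Dnmt1 KO changed sign in 4 settings and Rdh10 in the Dnmt3b KO in 5. The values in the gut-like cells of the Dnmt1 KO rest on only 29 to 42 cells per embryo.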

Other observations

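Further pairs of members were read together or apart in single WT cells thinned to 3000 UMIs, as a description over all classes. Crabp2 UMIs were found in 36.2% to 49.9% of cells with a Crabp1 UMI and in 15.5% to 26.4% of those without, higher in each of the 7 libraries. Rdh10 UMIs were found in 7.25% to 13.2% of cells with an Aldh1a2 UMI and in 3.29% to 4.87% of those without, again higher in each of the 7 libraries. Rarb UMIs were found in 0.602% to 2.99% of cells with a Cyp26a1 UMI and in 2.48% to 4.23% of those without, lower in 7 of 7 libraries, and 21 cells held both.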
